A study of Mus musculus with 8 samples.

Results

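The endothelin genes of the newborn mouse cortex were examined by RNA-seq in a model that loses the BAF chromatin remodeling complex from postmitotic neurons. The 7 genes are those encoding the ligands Edn1 and Edn3, the receptors Ednra and Ednrb, the converting enzymes Ece1 and Ece2 and the related protease Ecel1, of 48709 genes listed in the count files. They were taken by name. The family was chosen because Edn1 was higher in the mutant in this same contrast, so the Edn1 values are given as a description and carry no test. The other 6 genes entered by family membership, with earlier results of these data known.

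Endothelins are short peptides that are cut from long precursors. Furin-type proteases release an inactive intermediate, and endothelin-converting enzymes, which are membrane metalloproteases, then cleave it behind a tryptophan to give the active peptide. The active peptide binds G protein-coupled receptors. The A type receptor, encoded by Ednra, is known from vascular smooth muscle and pericytes, where it drives contraction. The B type receptor, encoded by Ednrb, is known from endothelium, astrocytes and neural crest cells. In blood vessels Edn1 is made mainly by endothelial cells and is a potent vasoconstrictor, whereas Edn3 is best known as the Ednrb ligand of neural crest cells.

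The samples were 8 whole-tissue cortex libraries at postnatal day 1 (P1), 4 control and 4 dcKO_Nex-Cre, on a C57BL6/J background. Per the study's methods, controls carried a floxed allele of BAF155 and of BAF170 beside a wild-type allele of each (BAF155fl/+, BAF170fl/+) and had no Cre, so that they were heterozygous for the floxed alleles that the mutants carry too. In the mutants, floxed BAF155 (Smarcc1) and BAF170 (Smarcc2) were recombined by Nex-Cre, which acts in postmitotic excitatory neurons and is not known to act in vessels, microglia or meninges. The GEO labels name the groups Control and Mutant, so that the Cre line is taken from the study's methods, and do not state whether the libraries came from separate animals, so p-values measure the spread between these libraries, which may be technical.

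The part of each ligand gene that encodes its mature peptide is shown because it holds the active peptide and the site of the converting enzyme. Each stretch holds 66 bases, the codons of the 21-residue peptide and the codon after it, 5′ to 3′ on the + strand of GRCm38, with the codons of the 4 cysteines that fold the peptide and of its final tryptophan in capitals. The converting enzyme cuts between the products of the last capitalised codon and the codon that follows.
Edn1, chr13:42303649-42303714: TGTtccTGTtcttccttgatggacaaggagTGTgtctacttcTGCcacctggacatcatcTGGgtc
Edn2, chr4:120161951-120162016: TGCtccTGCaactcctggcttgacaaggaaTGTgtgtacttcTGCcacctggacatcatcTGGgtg
Edn3, chr2:174761749-174761814: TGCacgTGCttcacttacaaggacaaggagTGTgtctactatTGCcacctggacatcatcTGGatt
In each gene the stretch lay within exon 2 of 5, in the coding sequence. It started at residue 53 of the 202-residue precursor for Edn1, at residue 46 of 175 for Edn2 and at residue 97 of 214 for Edn3. Over the 63 bases of the peptide itself Edn1 shared 53 with Edn2 and 50 with Edn3, which gave 18 and 15 identical residues of 21.

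Library depth ranged from 17958641 to 35191912 counts, and 23596 to 24221 genes had at least 1 count per library. Of the targeted genes, Smarcc2 fell from 462 ± 25.8 CPM (counts scaled to library size; SD, n = 4) in control to 263 ± 26.0 in dcKO_Nex-Cre (log2 fold change −0.81, edgeR adjusted p = 0.00267), and Smarcc1 fell from 148 ± 11.6 to 102 ± 13.7 CPM (−0.53, adjusted p = 0.0348), although its adjusted p stayed under 0.05 in only 2 of the 8 fits that left out 1 library. The groups did not overlap for either gene, and all 8 libraries matched their labels. Mitochondrial genes took 6.87% of counts in control 2 and 6.15% in dcKO_Nex-Cre 4, and 2.33% to 4.24% in the other 6 libraries. Choroid plexus markers summed to between 3.31 and 1327 CPM and spread widely within both groups. No listed marker of choroid plexus, microglia, interneurons or red blood cells passed the edgeR test. All 6 markers of excitatory cortical neurons, the cells in which Nex-Cre acts, were detected in every library, with sums of 882 to 966 CPM in control and 770 to 1006 CPM in dcKO_Nex-Cre. All 4 controls and dcKO_Nex-Cre 1 and 2 carried lane tag 2, the lane label given with the deposited tables, and dcKO_Nex-Cre 3 and 4 carried lane tag 8, so that mutants, but not controls, could be compared across lanes.

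Among the ligands, Edn1 (ENSMUSG00000021367, chr13:42301476-42307990, GRCm38) was present at 0.962, 1.31, 1.75 and 1.06 CPM in controls 1 to 4 and at 4.41, 3.30, 3.76 and 1.96 CPM in dcKO_Nex-Cre 1 to 4. Every mutant library lay above every control library, which was the case for 3.99% of all genes tested. These levels rested on 21 to 42 counts per control library and on 35 to 152 per mutant library. The gap between the groups was narrow at its edge, since dcKO_Nex-Cre 4 had 35 counts, with a 95% exact Poisson interval of 1.37 to 2.73 CPM, and control 3 had 42 counts, with an interval of 1.26 to 2.37 CPM. Such intervals cover counting error only.

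On average Edn1 stood at 1.27 ± 0.354 CPM in control and 3.36 ± 1.03 CPM in dcKO_Nex-Cre, a 2.66-fold difference with a log2 fold change of 1.41 (SE 0.28). Its edgeR adjusted p of 0.0438 describes the increase on which the family was chosen and is no test of it. The adjusted p was 0.000423 by DESeq2 and 0.0548 by limma-voom. Without dcKO_Nex-Cre 4, the mutant with the lowest Edn1 level, it was 0.0052, and without any other single library it lay between 0.0629 and 0.165. The log2 fold change ran from 1.25 to 1.61 over the 8 fits that left out 1 library and was 1.6 within lane tag 2. An annotated antisense gene, Gm47118, shares 35 exon bases (1.64% of the Edn1 exons) and is not listed in the count files.

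In whole tissue, fewer cells of a type and less RNA per cell cannot be told apart, and the same holds for more of either. The levels were therefore set beside markers of the cells that carry these genes. Of 10 endothelial markers, all 10 had a positive log2 fold change, with a median of 0.17, but none passed the test and 1 had an unadjusted p under 0.05. Their sum was 191, 134, 197 and 190 CPM in controls 1 to 4 and 206, 223, 187 and 174 CPM in dcKO_Nex-Cre 1 to 4, so that the groups overlapped. Per 100 CPM of this sum, Edn1 took 0.503 to 0.978 CPM in control and 1.13 to 2.14 CPM in dcKO_Nex-Cre, without overlap. This scale carries the Edn1 values on which the family was chosen, so the separation is a description and no separate result. No endothelial marker was at 0 in any library.

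Edn3 (ENSMUSG00000027524, chr2:174760619-174784042) was at the edge of detection. It was present at 0.366, 0.602, 0.334 and 0.396 CPM in controls 1 to 4 and at 0.261, 1.99, 0.702 and 1.35 CPM in dcKO_Nex-Cre 1 to 4. Of the mutant libraries 3 exceeded every control, whereas dcKO_Nex-Cre 1 was the lowest of all 8, and the groups overlapped. Behind these levels stood 8 to 11 counts per control library and 9 to 52 per mutant library.

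The mean of Edn3 was 0.425 ± 0.121 CPM in control and 1.08 ± 0.757 CPM in dcKO_Nex-Cre. Its log2 fold change of 1.31 (SE 0.55) was close in size to that of Edn1 but did not pass the test (unadjusted p = 0.0358, adjusted p = 0.328). Without dcKO_Nex-Cre 2 it dropped to 0.77, and under limma-voom it was 0.89. The library with the most Edn3 was also the library with the most meningeal RNA. The 6 markers of meningeal fibroblasts summed to 18.6, 29.3, 15.1 and 26.5 CPM in controls 1 to 4 and to 10.6, 57.0, 20.7 and 20.4 CPM in dcKO_Nex-Cre 1 to 4, and dcKO_Nex-Cre 1 had both the least Edn3 and the lowest sum. None of these 6 markers was at 0 in any library, 5 of 6 had a positive log2 fold change and none passed the test. Per 100 CPM of this sum Edn3 took 1.5 to 2.21 CPM in control and 2.46 to 6.61 CPM in dcKO_Nex-Cre. The groups did not overlap on this scale, which rests on 8 to 52 Edn3 counts per library. The gap was narrow, between 2.21 in control 3 and 2.46 in dcKO_Nex-Cre 1, which had 9 Edn3 counts and the lowest marker sum. In CPM alone, 3.99% of all genes tested had every mutant above every control, and Edn3 was not among them. No such share was computed for levels per marker sum, so the separation is a description. The highest value came from dcKO_Nex-Cre 4, whose marker sum of 20.4 CPM lay within the control range. The part of meningeal tissue in the Edn3 levels was not tested.

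The remaining ligand, Edn2, had 1 count in all 8 libraries together, in control 3, and was not tested. A count of 0 in the other 7 libraries allows a level of up to 0.0870 to 0.168 CPM, taking 3 counts as the limit, so that Edn2 was not detectable at this depth.

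**Figure D1:**
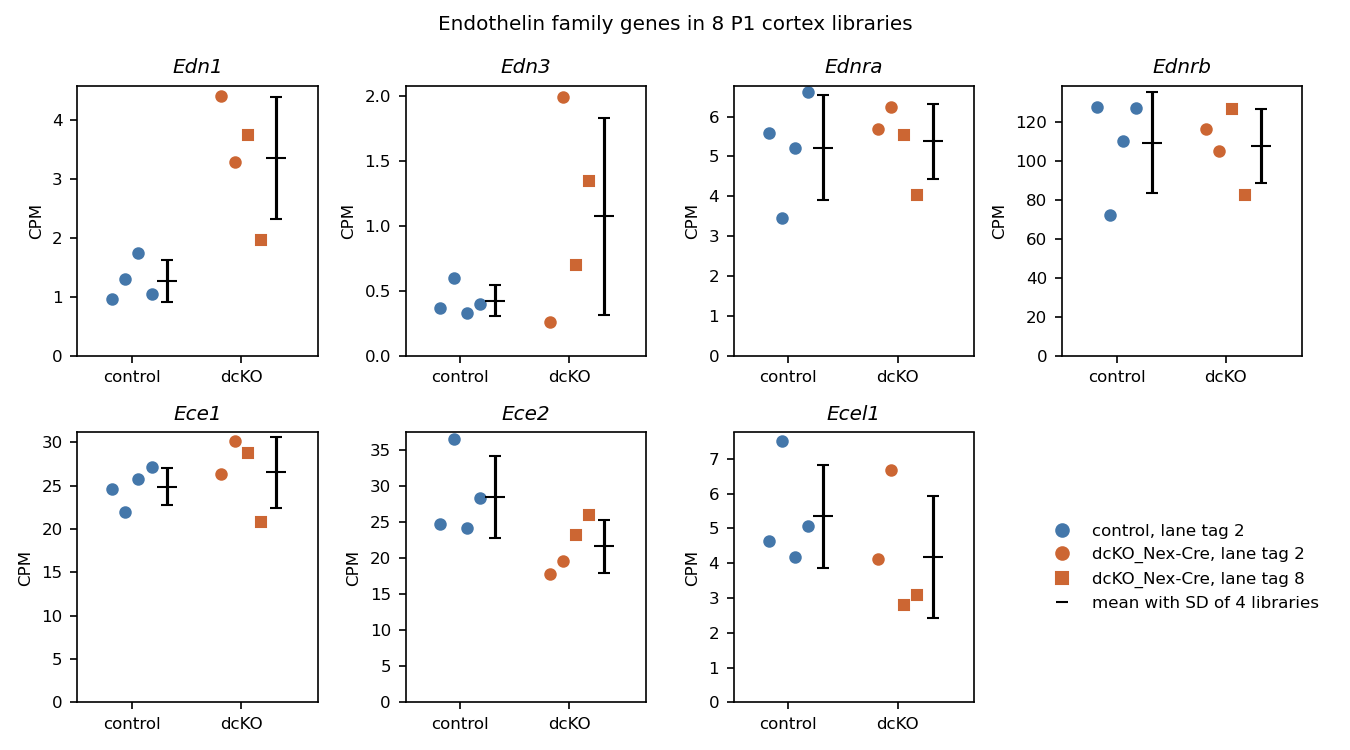
CPM of the 7 endothelin genes in each library, with a separate linear axis from 0 for each gene; circles are lane tag 2, squares lane tag 8, and the bar beside each group is the mean with the SD of 4 libraries. Only Edn1 has all 4 mutant libraries, 1.96 to 4.41 CPM, above all 4 controls, 0.962 to 1.75 CPM.

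**Figure D2:**
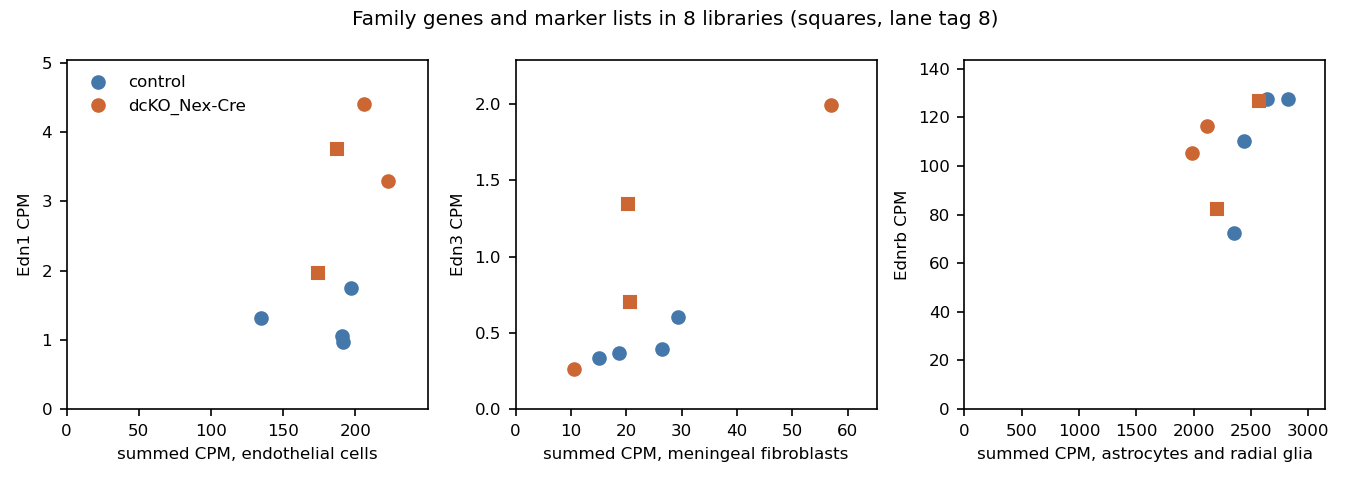
CPM of Edn1, Edn3 and Ednrb in each library against the summed CPM of the markers of endothelial cells, meningeal fibroblasts and astrocytes or radial glia; blue is control, orange dcKO_Nex-Cre, and squares are lane tag 8. The mutant libraries lie above the controls in Edn1 at endothelial sums of 174 to 223 CPM, and the mutant at 57.0 CPM of meningeal markers holds the highest Edn3 level, 1.99 CPM.

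Neither receptor gene differed between the groups beyond the spread of the libraries. Ednra (ENSMUSG00000031616, chr8:77663031-77724464), the A type receptor, was present at 5.59, 3.45, 5.22 and 6.61 CPM in controls 1 to 4 and at 5.68, 6.25, 5.53 and 4.04 CPM in dcKO_Nex-Cre 1 to 4. The lowest values came from control 2 and dcKO_Nex-Cre 4, the libraries with the largest mitochondrial share. With means of 5.21 ± 1.32 and 5.37 ± 0.941 CPM, its log2 fold change was 0.05 (SE 0.20, adjusted p = 0.940). Its sign was not fixed, since it ran from −0.09 to 0.18 when 1 library was left out. The opposite-strand gene 4933431K23Rik shares 91 of the Ednra exon bases and had 24 counts in all 8 libraries together.

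Ednra was read beside 9 markers of pericytes and vascular smooth muscle, which summed to 187 to 255 CPM in control and 202 to 225 CPM in dcKO_Nex-Cre, with none at 0. Of these, 5 had a positive log2 fold change and 1, Cspg4, passed the edgeR test, beside 0.884% of all genes tested. Cspg4 rose from 17.8 ± 1.11 to 26.2 ± 3.24 CPM (log2 fold change 0.56, SE 0.10, adjusted p = 0.0355). Cspg4 encodes the NG2 proteoglycan, which oligodendrocyte precursors carry as well as pericytes, and its adjusted p stayed under 0.05 in only 1 of 8 fits without 1 library. All 4 listed markers of oligodendrocyte precursors had a positive log2 fold change, 3 with an unadjusted p under 0.05 beside 13.6% of all genes tested, and none passed the test. Per 100 CPM of the pericyte and smooth muscle sum, Ednra took 1.85 to 2.60 CPM in control and 1.93 to 2.82 CPM in dcKO_Nex-Cre, and the groups overlapped.

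Ednrb (ENSMUSG00000022122, chr14:103814625-103844402), the B type receptor, was by far the most abundant of the 7 genes. Controls 1 to 4 had 128, 72.5, 110 and 127 CPM, and dcKO_Nex-Cre 1 to 4 had 116, 105, 127 and 82.4 CPM. Control 2 and dcKO_Nex-Cre 4 were again the lowest of their groups. The means were 109 ± 26.0 and 108 ± 19.0 CPM, with a log2 fold change of −0.02 (SE 0.18, adjusted p = 0.965) whose sign turned in 4 of 15 alternative fits.

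The 8 markers of astrocytes and radial glia, cells in which Ednrb is known to be expressed, summed to 2355 to 2823 CPM in control and 1984 to 2571 CPM in dcKO_Nex-Cre, with 4 higher, 4 lower, none at 0 and none past the edgeR test. DESeq2 called 1 of them lower, and so did the edgeR fit within lane tag 2. DESeq2 also called 1 of 9 markers of pericytes and smooth muscle, 1 of 5 of microglia and 1 of 6 of excitatory neurons lower. Over all genes, DESeq2 called 279 lower of the 15648 with an adjusted p. The fit within lane tag 2 called 108 lower of 16792. Per 100 CPM of the astrocyte and radial glia sum, Ednrb took 3.08 to 4.83 CPM in control and 3.74 to 5.50 CPM in dcKO_Nex-Cre. The balance of the receptors was nearly constant. Per kilobase of exon, Ednrb made up 96.4% ± 0.239 of the receptor transcripts in control and 96.2% ± 0.471 in dcKO_Nex-Cre (SD, n = 4).

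The processing enzymes split by direction without any of them passing the test. Ece1 (ENSMUSG00000057530, chr4:137862237-137965229) encodes the principal converting enzyme and was present at 24.6, 22, 25.7 and 27.1 CPM in controls 1 to 4 and at 26.3, 30.2, 28.7 and 20.8 CPM in dcKO_Nex-Cre 1 to 4. The mutant range enclosed the control range. Its means of 24.9 ± 2.15 and 26.5 ± 4.11 CPM gave a log2 fold change of 0.09 (SE 0.12, adjusted p = 0.745), which ran from 0.03 to 0.19 without 1 library.

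Ece2 (ENSMUSG00000022842, chr16:20629828-20646485) encodes a converting enzyme that works at acidic pH inside the cell and is known from neurons. It was present at 24.8, 36.5, 24.1 and 28.3 CPM in controls 1 to 4 and at 17.8, 19.5, 23.2 and 26.0 CPM in dcKO_Nex-Cre 1 to 4. Of the mutant libraries 3 lay below every control, and dcKO_Nex-Cre 4 lay within the control range. The mean was 28.4 ± 5.67 CPM in control and 21.6 ± 3.67 CPM in dcKO_Nex-Cre, with a log2 fold change of −0.40 (SE 0.15), an unadjusted p of 0.0246 and an adjusted p of 0.287.

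The Ece2 difference was larger within lane tag 2, at −0.60 (adjusted p = 0.0832), and smaller without control 2, the library with the most Ece2, at −0.25. Relative to 6 markers of excitatory neurons, of which 4 had a negative log2 fold change and none passed the test, Ece2 took 2.50 to 4.11 CPM per 100 CPM in control and 1.77 to 3.37 CPM in dcKO_Nex-Cre, and the groups overlapped. A readthrough gene annotated on the same strand, Gm49333, shares 57.5% of the Ece2 exon bases and is not listed in the count files, so that reads assigned to Ece2 could stem from either.

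Ecel1 (ENSMUSG00000026247, chr1:87147655-87156521) encodes a neuronal protease that resembles the converting enzymes and is known for its part in the branching of motor axons. It was present at 4.63, 7.5, 4.17 and 5.07 CPM in controls 1 to 4 and at 4.12, 6.67, 2.81 and 3.09 CPM in dcKO_Nex-Cre 1 to 4. All mutants but dcKO_Nex-Cre 2 lay below every control. The highest control was control 2, and the highest mutant, dcKO_Nex-Cre 2, carried lane tag 2, as did dcKO_Nex-Cre 1 and all controls. With means of 5.34 ± 1.48 and 4.17 ± 1.76 CPM, the log2 fold change was −0.34 (SE 0.28, adjusted p = 0.601), and it was 0.02 within lane tag 2. It was −0.66 without dcKO_Nex-Cre 2, and −0.13, −0.19 and −0.22 without control 2, dcKO_Nex-Cre 3 and dcKO_Nex-Cre 4.

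The spread of the converting enzymes left a shift in their balance that did not separate the groups. Per kilobase of exon, Ece1 made up 46.1% ± 6.31 of the sum of Ece1 and Ece2 in control, with a range of 36.8% to 50.7%, and 54.2% ± 7.42 in dcKO_Nex-Cre, with a range of 43.6% to 59.8%.

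Counted over the family, 1 of 7 genes, Edn1, had an adjusted p under 0.05 in the edgeR fit, in which 0.884% of the 16287 genes tested did. That gene is the one the family was chosen on. Of the other 6, none passed in edgeR, DESeq2 or limma-voom, against 3.16% of the 15648 genes with an adjusted p in DESeq2 and 0.798% of genes in limma-voom. An unadjusted p under 0.05 was found for 2 of these 6, Edn3 with the higher mean in the mutant and Ece2 with the lower, and for 13.6% of all genes tested. Non-overlapping groups were found for Edn1 alone, with the mutant higher as in 3.99% of all genes tested. None of the 7 had every mutant library below every control, as 4.01% of all genes tested did. The 6 genes that entered by family membership thus gave no call under any of 15 alternative fits. For Edn3 there were 14, since it had too few counts for the filter of 10 counts in every library.

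**Figure D3:**
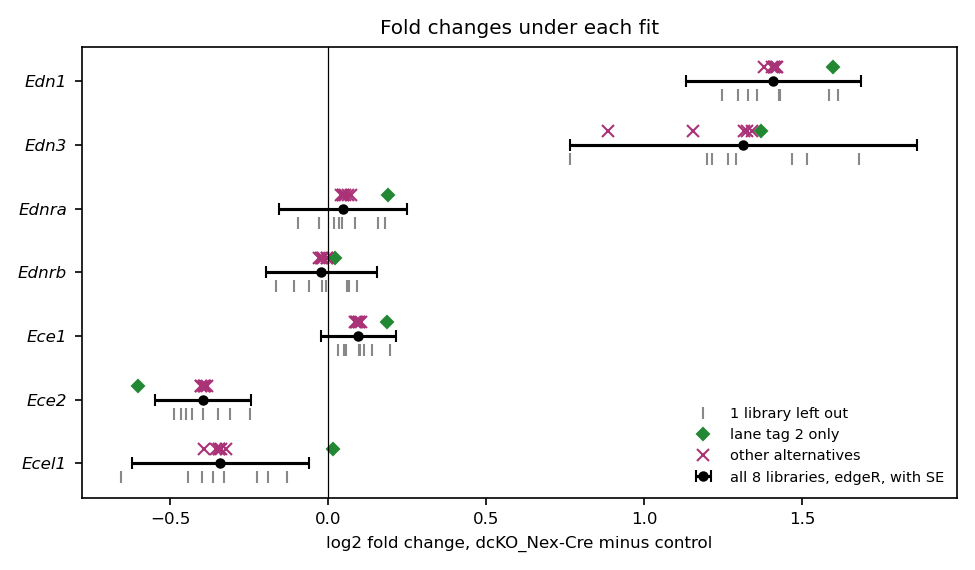
Log2 fold change, dcKO_Nex-Cre minus control, of each gene in the edgeR fit of all 8 libraries (black point, bar 1 SE), without 1 library each (grey ticks), within lane tag 2 (green diamond) and under the other alternatives (crosses). Edn1 stays between 1.25 and 1.61, Edn3 spreads from 0.77 to 1.68, both receptors and Ece1 lie near 0, and Ecel1 moves from −0.34 to 0.02 within lane tag 2.

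To compare levels between genes, CPM were divided by the kilobases of annotated exon. In control, Ednrb led with 25.6 ± 6.08 CPM per kb, followed by Ece2 with 5.56 ± 1.11, Ece1 with 4.69 ± 0.406, Ecel1 with 1.53 ± 0.424, Ednra with 0.952 ± 0.240, Edn1 with 0.594 ± 0.165 and Edn3 with 0.103 ± 0.0294. The ranges of the libraries overlapped between the neighbours Ece2 and Ece1, Ecel1 and Ednra, and Ednra and Edn1. In these pairs the order held in 3, 4 and 4 of the 4 control libraries.

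In dcKO_Nex-Cre, Ednrb was again highest at 25.2 ± 4.45 CPM per kb, 5.05 times the level of Ece1, which came next with 5.0 ± 0.775 ahead of Ece2 with 4.23 ± 0.718. Edn1 followed at 1.57 ± 0.483 CPM per kb, in place 4 rather than in place 6 as in control. This move carries the Edn1 increase on which the family was chosen and is no separate result. After Edn1 came Ecel1 with 1.19 ± 0.502, Ednra with 0.982 ± 0.172 and Edn3 with 0.262 ± 0.184. The ranges of Edn1 and Ecel1 and of Ecel1 and Ednra overlapped, and so did those of Ece1 and Ece2. The order of the close pairs depended on the length used, as only 3 of 7 genes kept their place in dcKO_Nex-Cre with the longest transcript in place of all exons, whereas Ednrb, Edn1 and Edn3 were the genes that did.

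Ligand and receptor levels were far apart in both groups. Ednrb per kb exceeded the summed Edn1 and Edn3 level by 22.3 to 55.5 times in control and by 12.2 to 15.5 times in dcKO_Nex-Cre, a ratio that carries the Edn1 values on which the family was chosen. Edn1 made up 84.7% ± 4.38 of this ligand sum in control and 84.5% ± 11.4 in dcKO_Nex-Cre. Within the mutants this share ran from 73.7% in dcKO_Nex-Cre 4 to 97.0% in dcKO_Nex-Cre 1.

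**Figure D4:**
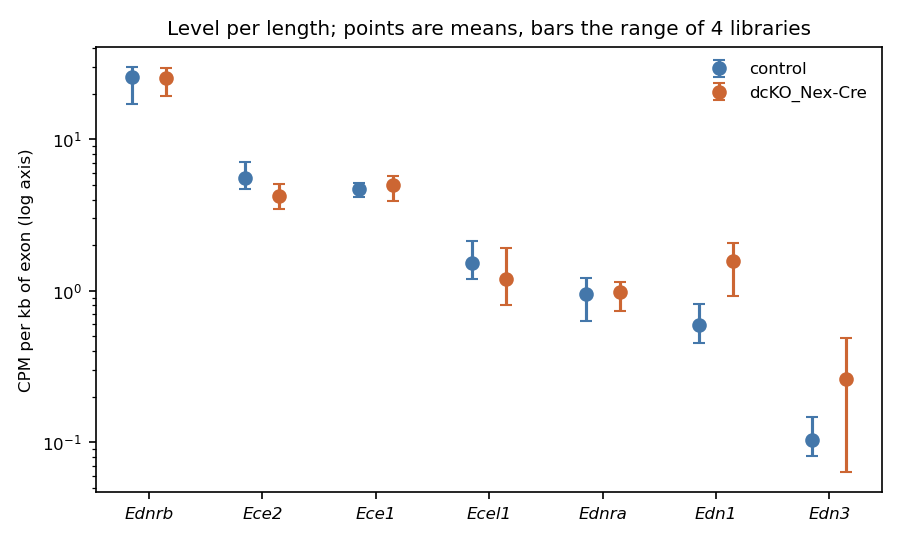
Level of each gene in CPM per kilobase of exon on a log axis, with the mean as a point and the lowest and highest of 4 libraries as bars. Ednrb lies near 25 in both groups, and Edn1 moves from 0.594 in control to 1.57 in dcKO_Nex-Cre, past Ednra and Ecel1. The Edn1 move carries the increase on which the family was chosen.

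The genes whose log2 CPM followed Edn1 most closely over the 8 libraries, among 13255 genes with a mean of at least 50 counts, were Rsf1 (Pearson r = 0.988), Mtmr14 (0.986), Foxo4 (0.979), Zhx3 (0.978) and Zfp106 (0.978). Rsf1 encodes a chromatin remodeling subunit and Foxo4 a forkhead transcription factor. All 5 had a positive log2 fold change, 0.21 to 0.47, and an edgeR adjusted p of 0.0776 to 0.237. This shared sign follows from the ranking, since Edn1 itself was higher in every mutant library, and is no result about these genes. After group means were subtracted, so that only the variation within groups counted, Kif7 (0.995), Trak1 (0.980), Zfp106 (0.971), Fan1 (0.970) and R3hcc1 (0.969) came first. Zfp106, which encodes a zinc finger protein, was the gene in both sets. The coefficients of these named genes are the highest among many genes over 8 libraries that share depth and group, and are given as a description. Of the family, Ece1 had r = 0.459 with Edn1 over all libraries and 0.517 after group means were subtracted, and Ece2 had −0.741 and −0.458. Ednra had 0.194 and 0.206, Ednrb 0.107 and 0.234, and Ecel1 −0.332 and 0.119. The values over all libraries carry the Edn1 difference on which the family was chosen, and all are given as a description.

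Outside the family, genes that act before and after endothelin were taken as lists. Of 13 genes for precursor processing and peptide clearance, 9 were tested, none passed and 3 had a positive log2 fold change with an unadjusted p under 0.05, where 1073 of the 16287 genes tested had both. These were Ctsa, a lysosomal carboxypeptidase (64.8 ± 3.66 to 78.4 ± 6.02 CPM, adjusted p = 0.157), the proprotein convertase Pcsk7 (33.6 ± 1.75 to 39.8 ± 1.72 CPM, adjusted p = 0.178) and the matrix metalloprotease Mmp2 (6.53 ± 0.357 to 8.48 ± 1.08 CPM, adjusted p = 0.223). Furin, the best known convertase of the precursor, had a log2 fold change of 0.08 (adjusted p = 0.644), and the peptide-degrading protease Mme had −0.05 (adjusted p = 0.884). The median of the list was 0.08, beside 0.0043 over all genes tested. Edn2, Kel, Cma1 and Mcpt4 had too few counts.

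All 22 genes of receptor signalling were tested and none passed, with a median log2 fold change of 0.06. An unadjusted p under 0.05 was found for 2 with a positive and 1 with a negative log2 fold change, beside 13.6% of all genes tested. The smallest p belonged to Itpr1, the IP3 receptor that releases calcium from internal stores, with 97.5 to 112 CPM in control and 119 to 164 CPM in dcKO_Nex-Cre (log2 fold change 0.46, SE 0.10, adjusted p = 0.0672). Itpr1 passed in 3 of 15 alternative fits, among them DESeq2 (adjusted p = 0.00414), but not in limma-voom (adjusted p = 0.0768). Plcb4, a phospholipase C, had 0.19 (adjusted p = 0.320) and Gnas, a G protein alpha subunit whose locus holds overlapping transcripts that counting may split, had −0.23 (adjusted p = 0.357). The receptor-coupled G protein genes Gnaq and Gna11 had 0.16 and 0.05, with adjusted p of 0.542 and 0.797.

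Of 12 transcriptional regulators of Edn1, 11 had a positive log2 fold change, with a list median of 0.16 beside 0.0043 over all genes tested, and 4 had an unadjusted p under 0.05 beside 13.6% of all genes tested, but none passed over all genes. Gata2, a GATA factor that acts in endothelium, was at 1.47, 0.602, 0.835 and 0.793 CPM in controls 1 to 4 and at 2.17, 2.34, 1.49 and 1.68 CPM in dcKO_Nex-Cre 1 to 4. The groups were separated by a narrow margin, with 11 to 32 counts per control library and 30 to 75 per mutant library. Its log2 fold change was 1.05 (SE 0.28, adjusted p = 0.133), and DESeq2 gave an adjusted p of 0.0430. The adjusted p was 0.111 in limma-voom and under 0.05 in 2 of 15 alternative fits.

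Klf2, a flow-responsive factor of endothelial cells, had 2.81 ± 0.313 CPM in control and 3.82 ± 0.482 CPM in dcKO_Nex-Cre (adjusted p = 0.256). Foxo1 had 27.7 ± 2.63 and 40.5 ± 14.7 CPM, with a log2 fold change of 0.55 (adjusted p = 0.292). That value was 0.84 within lane tag 2 (adjusted p = 0.0361), 0.74 without dcKO_Nex-Cre 4 (adjusted p = 0.0207) and 0.31 without dcKO_Nex-Cre 2 (adjusted p = 0.551). The hypoxia factor gene Hif1a had a log2 fold change of 0.02 (adjusted p = 0.934).

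Among 16 genes of other vasoactive peptide systems, 15 were tested and none passed, with a median of 0.05. Of these, 1 higher and 1 lower gene had an unadjusted p under 0.05, beside 13.6% of all genes tested. Npr3, the clearance receptor of natriuretic peptides, had 13.9 to 15.4 CPM in control and 17.2 to 23.8 CPM in dcKO_Nex-Cre (log2 fold change 0.51, SE 0.11, adjusted p = 0.0634). It passed in 4 of 15 alternative fits, among them DESeq2 (adjusted p = 0.0033), but not in limma-voom (adjusted p = 0.0833). Ramp1, a subunit of the CGRP receptor, had −0.32 (adjusted p = 0.332), and −0.19 without control 2. The vasodilator peptide gene Adm had 0.923 ± 0.0970 and 1.24 ± 0.158 CPM (adjusted p = 0.393).

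Edn1 is also known to respond to low oxygen. Of 12 genes with this response, 5 had a positive and 7 a negative log2 fold change, with a median of −0.06. The unadjusted p was under 0.05 for 3 of the positive and 2 of the negative genes, beside 13.6% of all genes tested. Ddit4, an inhibitor of mTOR signaling, was the 1 gene that passed, beside 0.884% of all genes tested. Its levels were 79.7, 63.9, 82.0 and 74.4 CPM in controls 1 to 4 and 99.4, 105, 108 and 112 CPM in dcKO_Nex-Cre 1 to 4. It rose by a log2 fold change of 0.50 (SE 0.09, adjusted p = 0.0278), and its adjusted p ran from 0.0142 to 0.110 without 1 library, under 0.05 in 3 of 8 fits. It did not pass within lane tag 2, with a log2 fold change of 0.45 (adjusted p = 0.0603).

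The glucose transporter gene Slc2a1, which is also strongly expressed in brain endothelium, had 42.2 ± 5.56 and 68.2 ± 12.7 CPM (log2 fold change 0.69, SE 0.14, adjusted p = 0.0504). Its adjusted p was under 0.05 in 4 of 15 alternative fits, among them 0.0163 within lane tag 2 and 0.000752 in DESeq2, but it was 0.0601 in limma-voom. Without dcKO_Nex-Cre 4 it was 0.0019, and without any other single library it was 0.0905 to 0.167. Pdk1 had 45.7 ± 2.86 and 56.6 ± 4.95 CPM (adjusted p = 0.139), whereas Vegfa had a log2 fold change of −0.31 (adjusted p = 0.253) and Bnip3 one of −0.38 (adjusted p = 0.307). DESeq2 called 3 genes of this list higher and none lower. Over all genes it called 215 higher of the 15648 with an adjusted p.

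**Figure D5:**
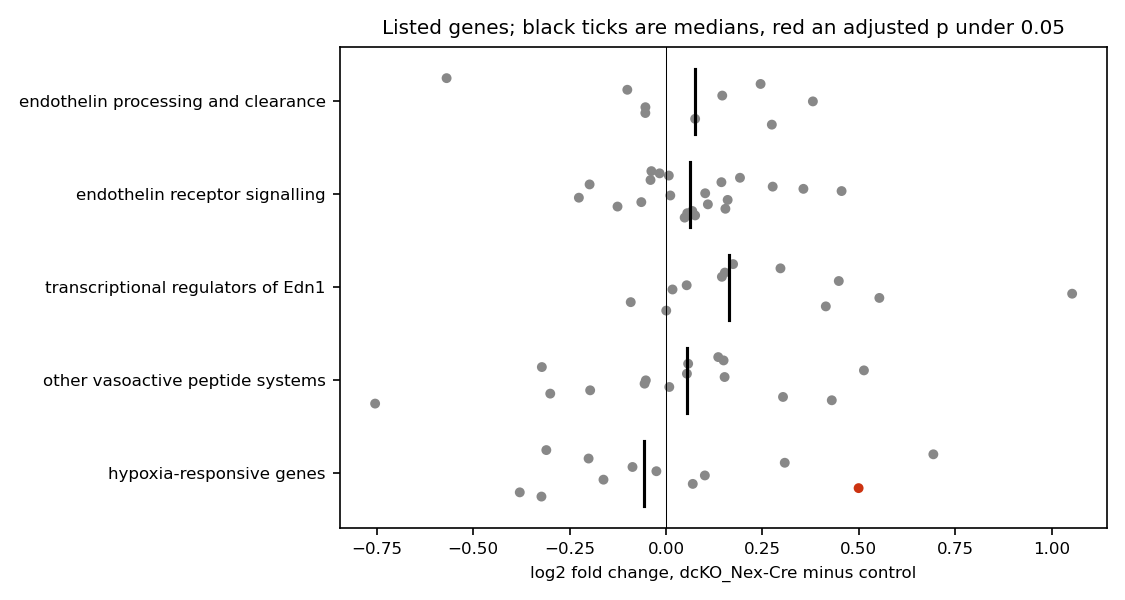
Log2 fold change, dcKO_Nex-Cre minus control, of every tested gene of the 5 lists (points; vertical position within a list is for legibility), with the list's median as a black tick and an adjusted p under 0.05 in red. The medians lie between −0.06 and 0.16, and Ddit4 among the hypoxia-responsive genes is the red point.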

How the data were processed

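RNA-seq was done on P1 cortex, 4 control and 4 dcKO_Nex-Cre libraries, grouped by the GEO labels. The authors deposited 1 table of raw read counts per Ensembl gene for each library, from TruSeq libraries, with mm10 (GRCm38) named as the build in the submitters' processing notes; the aligner, the counting program and the use of strand are not given in the sources used here. Counts were tested in R 4.3.3 with edgeR 4.0.16 (TMM scaling, filterByExpr, quasi-likelihood F test, two-sided, Benjamini-Hochberg over the 16287 genes tested, threshold 0.05), and the fit was tested on simulated data. DESeq2 1.42.0, limma-voom (limma 3.58.1), DESeq2 size factors, no filter, a filter of 10 counts in every library, a replicate block, lane tag 2 alone and leaving out each library served as alternatives. CPM used TMM-scaled library sizes and log2 CPM a prior count of 2. Symbols, exon lengths and the peptide-coding sequences were taken from GENCODE M21 on GRCm38, where 48349 of 48709 IDs matched. The depth of each library, 17958641 to 35191912 counts, sets the counting error of the low genes.

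The members and gene lists were chosen with earlier results of these data known. Genes named beside the 7 members were the 3 with the smallest p of each list, list genes past the threshold, the 5 most correlated with Edn1 over all libraries or within groups, the targeted genes and genes overlapping a member. Cspg4, Furin, Mme, Gnaq, Gna11, Hif1a, Vegfa and Bnip3 were named after their values were seen. Libraries of a group differed beyond sampling noise in every pair (lowest chi-square over its degrees of freedom, 3.80).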

Additional observations from a re-analysis of the deposited data

Results flagged for a closer look

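Dixon's ratio was computed over the 4 libraries of each group for 41 genes, the 7 members and the other tested genes named in the text, and for total counts and mitochondrial share, 86 groups in all, of which chance flags about 1 in 20. In 6 groups 1 library was far from the others, and no member was among them. Itpr1 was at 112 CPM in control 3 and at 97.5 to 99.8 CPM in the other controls. Ramp1 was at 11.8 CPM in dcKO_Nex-Cre 1 and at 14.8 to 15.3 CPM in the other mutants. Adm was at 0.778 CPM in control 1, on 17 counts, and at 0.960 to 0.985 CPM in the other controls. Slc2a1 was at 49.3 CPM in dcKO_Nex-Cre 4 and at 72.6 to 77.1 CPM in the other mutants. Rsf1 was at 85.3 CPM in dcKO_Nex-Cre 4 and at 94.0 to 95.6 CPM in the other mutants. Mme was at 19.98 CPM in dcKO_Nex-Cre 4 and at 13.95 to 14.65 CPM in the other mutants.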

How the results depend on the processing

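The number of genes called, 144 (61 higher, 83 lower), was 494 (215 and 279) in DESeq2, 259 (109 and 150) without a filter, 248 (140 higher) within lane tag 2 and 18 to 1278 without 1 library (9 to 659 higher, 9 to 619 lower), the highest without dcKO_Nex-Cre 4. The cause was not tested. Same-numbered libraries did not deviate together (r = 0.126, 0.018, 0.135 and −0.138, with none correlating best with its own number), and the replicate block gave 54 calls (21 and 33), with Edn1 at 1.38 (adjusted p = 0.0793) and no call among the other 6 members. Signs turned for Ednrb (0.0206 within lane tag 2, −0.167 to 0.0898 without 1 library), Ednra (−0.0947 to 0.179 without 1 library) and Ecel1 (0.0157 within lane tag 2), none past the threshold, and 3 of 7 members kept their place by level in dcKO_Nex-Cre with the longest transcript. The sign of Edn1, Edn3, Ece1 and Ece2 held in every alternative run. Depth limits Edn3 most, with 8 to 52 counts per library.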
